A study of Mus musculus with 6 samples.

Results

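The growth hormone receptor, STAT5 and IGF1 axis was described in mouse liver from 10 genes chosen by name: Ghr, Jak2, Stat5a, Stat5b, Igf1, Igfals, Socs2, Cish, Bcl6 and Cux2. All 10 were found by exact symbol among 35976 genes of the count table, and all 10 passed the filter on low counts that left 14954 genes for testing. Poly(A) RNA from whole liver was sequenced in 3 IRE1PKO libraries and 3 IRE1fl libraries. The mice were males on HFD, taken to mean a high-fat diet, and livers were collected after 16 hours of fasting followed by 4 hours of feeding. IRE1 is a stress sensor of the endoplasmic reticulum encoded by Ern1. What PKO abbreviates is left unsaid by the labels, while the title of the series concerns signalling between pituitary and liver. The "fl" of the other genotype usually marks an allele flanked by loxP sites. No source used here gives the Cre driver, the strain or the age of the mice.

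Growth hormone is made in the anterior pituitary and acts on hepatocytes through its receptor, GHR. The receptor carries the kinase JAK2, which phosphorylates STAT5A and STAT5B, and these enter the nucleus and switch on Igf1, Igfals, Socs2 and Cish. IGF1 circulates bound to the acid-labile subunit encoded by Igfals and to an IGF binding protein. SOCS2 and CIS, the product of Cish, damp the receptor's signal. BCL6 is a repressor that competes with STAT5 for the same DNA sites. CUX2 is a repressor typical of female mouse liver. In rodents the pattern of growth hormone release differs between males and females, and many liver genes differ between the sexes through it.

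The libraries held between 35776219 and 39277435 counts in total, over 18649 to 19153 detected genes. Values are in CPM, counts normalised to library totals after trimmed-mean scaling. Ern1 had 45.7, 36.6 and 44.2 CPM in the IRE1PKO livers and 61.2, 49.3 and 60.8 CPM in the IRE1fl livers (log2 fold change -0.44, SE 0.11, edgeR adjusted p = 0.0357). A deletion in a tissue other than liver could not be checked from these values. Of 13 hepatocyte markers all were detected, and their summed level ran from 97514 to 124329 CPM in IRE1PKO and from 107533 to 125188 CPM in IRE1fl. Alb alone gave most of each sum, from 57901 to 71779 CPM in IRE1PKO and from 56457 to 70461 CPM in IRE1fl. The median log2 fold change of the 13 was -0.25, so the sums do not show that these markers were unchanged. In bulk liver, fewer cells of a type and less RNA per cell cannot be told apart. Nothing in the labels says that libraries of a group came from separate animals, so the p-values reflect variation among the libraries sequenced, part of which may be technical. Where values are given, a liver stands for a library, which need not be a separate animal.

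In IRE1PKO livers the transcripts of Igf1 and Igfals, which encode circulating proteins, were lower, and no axis gene passed the test in the other direction. The receptor, the kinase and both STAT5 genes differed by less and did not pass. Between livers of the same genotype, the feedback gene Cish varied 2.90-fold in IRE1PKO and 2.98-fold in IRE1fl, and Socs2 varied 3.60-fold in IRE1PKO and 1.62-fold in IRE1fl. Of the 10 genes 2 were called, both lower, where 9.54% of all tested genes were called and 3.86% were called lower. None was called higher, where 5.68% of all tested genes were called higher. At an unadjusted p under 0.05, 1 axis gene was higher and 3 were lower. DESeq2 and limma-voom also called 0 higher and 2 lower. A call here is an adjusted p under 0.05 by the quasi-likelihood test of edgeR, with the Benjamini-Hochberg adjustment taken over all tested genes. The median log2 fold change, IRE1PKO over IRE1fl, was -0.14 over the 10 genes and 0.00 over all tested genes. The groups did not overlap for 4 of the 10 genes, as for 31.0% of all tested genes.

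**Figure D1:**
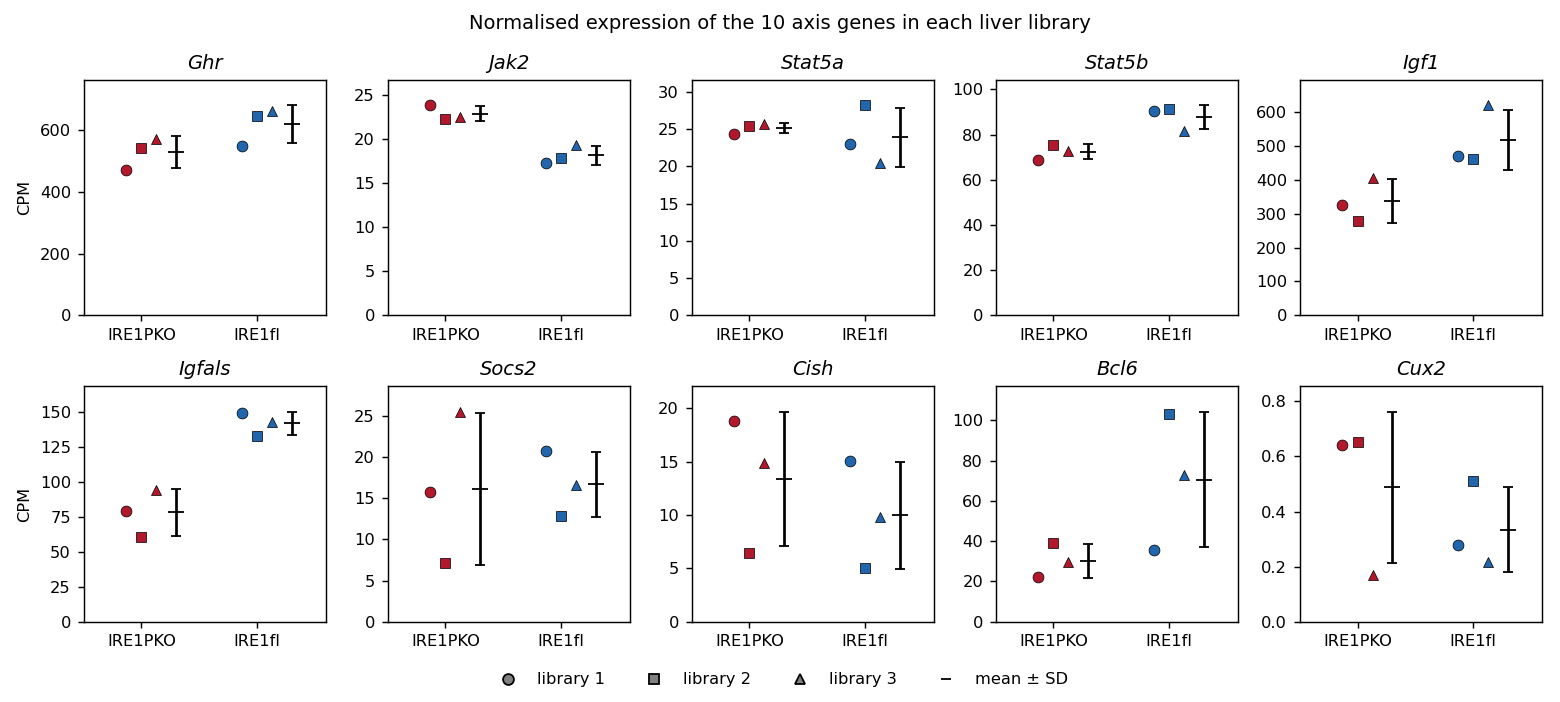
Normalised expression (CPM, linear axes from 0) of each axis gene in the 3 IRE1PKO and 3 IRE1fl libraries, with bars for the mean and SD. Igfals stands apart between the genotypes, from 60.7 to 94.1 CPM in IRE1PKO and from 133 to 149 CPM in IRE1fl, whereas Socs2 and Cish overlap widely.

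Levels of different genes were set side by side per kilobase of merged exons from GENCODE M21, on the mm10 build named for the data. Transcript isoforms in these livers were not resolved, so the order is approximate. Gene positions given with each gene are from the same annotation. Ghr was the highest in mean level, with 58.3 CPM per kilobase in IRE1PKO and 68.4 in IRE1fl. Igf1 followed with 34.0 and 52.4 CPM per kilobase in IRE1PKO and IRE1fl, and then Igfals with 24.6 in IRE1PKO and 44.8 in IRE1fl. Stat5b had 13.1 CPM per kilobase in IRE1PKO and 15.9 in IRE1fl. Ghr and Igf1 ranges did not overlap in IRE1PKO but did in IRE1fl, and Igf1 and Igfals overlapped in both genotypes. Bcl6 averaged 4.52 CPM per kilobase in IRE1PKO, beside Jak2 at 4.54, and 10.5 in IRE1fl, where Jak2 was at 3.60. The IRE1fl range of Bcl6 reached into that of Stat5b. Stat5a had 3.52 and 3.34 CPM per kilobase in IRE1PKO and IRE1fl, and overlapped with Bcl6 in IRE1PKO and with Jak2 in IRE1fl. Cish and Socs2 overlapped in both genotypes, at 2.09 and 1.69 CPM per kilobase in IRE1PKO and at 1.55 and 1.75 in IRE1fl. Cux2 was the lowest, at 0.0484 CPM per kilobase in IRE1PKO and 0.0332 in IRE1fl.

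Ghr, the receptor (chromosome 15, 3317760 to 3583492), had 471, 542 and 571 CPM in the IRE1PKO livers and 548, 647 and 663 CPM in the IRE1fl livers. The lowest IRE1fl liver lay within the IRE1PKO range, so the groups overlapped. The log2 fold change was -0.23 (SE 0.11, 95% interval -0.48 to 0.02), with an edgeR adjusted p of 0.237. The same gene gives the soluble growth hormone binding protein by alternative splicing in mice, and gene counts do not separate the forms.

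Jak2, the kinase bound to the receptor (chromosome 19, 29251828 to 29313080), had 23.8, 22.2 and 22.5 CPM in IRE1PKO and 17.2, 17.8 and 19.3 CPM in IRE1fl. Every IRE1PKO liver lay above every IRE1fl liver. The log2 fold change was 0.34 (SE 0.10, 95% interval 0.12 to 0.55), with an unadjusted p of 0.00519 and an edgeR adjusted p of 0.0522. Jak2 thus missed the threshold. It passed in 3 of 15 alternative settings, with library totals as the only scaling, with a minimum mean of 1 CPM and with all counts halved, as for pairs counted by both mates (edgeR adjusted p of 0.0213, 0.0476 and 0.0466). The adjusted p ran from 0.0213 to 0.160 over the alternatives.

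Stat5b, the STAT5 form that carries most of the growth hormone signal in male mouse liver (chromosome 11, 100780731 to 100850724), had 68.8, 75.5 and 72.9 CPM in IRE1PKO and 90.5, 91.2 and 81.8 CPM in IRE1fl. All IRE1PKO values were below all IRE1fl values. The log2 fold change was -0.28 (SE 0.09, 95% interval -0.47 to -0.09), with an unadjusted p of 0.00740, and it did not pass over all genes (edgeR adjusted p = 0.0645). It passed in none of 15 alternatives, whose adjusted p ran from 0.0531 to 0.199. Stat5a, its neighbour on the same chromosome (100859351 to 100885169), had 24.3, 25.4 and 25.7 CPM in IRE1PKO and 23.0, 28.2 and 20.4 CPM in IRE1fl. The IRE1PKO livers lay inside the IRE1fl range. Its log2 fold change was 0.08 (SE 0.12, 95% interval -0.19 to 0.34, edgeR adjusted p = 0.740). The 2 genes are close copies, and the authors' counting could have split shared reads between them, so the values of each are uncertain. Stat5a also overlaps Stat3 on the opposite strand, and the counting is not stated to use strand.

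Igf1, the hormone through which much of growth hormone's effect on body growth runs (chromosome 10, 87858265 to 87937042), had 325, 279 and 407 CPM in the IRE1PKO livers and 472, 462 and 621 CPM in the IRE1fl livers. All IRE1PKO livers were below all IRE1fl livers. The means were 337 ± 65.1 CPM in IRE1PKO and 519 ± 89.0 CPM in IRE1fl (SD, n = 3 each). Igf1 fell by 0.62 in log2 terms (SE 0.16, 95% interval -0.98 to -0.26, edgeR adjusted p = 0.0388). The call was lost without IRE1PKO 1, IRE1PKO 2, IRE1fl 2 or IRE1fl 3, with log2 fold changes of -0.60, -0.50, -0.70 and -0.47 and edgeR adjusted p of 0.140, 0.113, 0.0505 and 0.115. It was also lost with library totals as the only scaling (-0.54, edgeR adjusted p = 0.0538). Over all 15 alternatives the adjusted p ran from 0.00107 to 0.140. The antisense gene Igf1os overlaps Igf1, and the counting is not stated to use strand.

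Igfals, the acid-labile subunit that keeps IGF1 in the circulation (chromosome 17, 24865997 to 24882010), had 79.3, 60.7 and 94.1 CPM in IRE1PKO and 149, 133 and 143 CPM in IRE1fl. The highest IRE1PKO liver was well below the lowest IRE1fl liver. The means were 78.0 ± 16.7 CPM in IRE1PKO and 142 ± 8.13 CPM in IRE1fl (SD, n = 3 each). Igfals fell by 0.86 in log2 terms (SE 0.14, 95% interval -1.18 to -0.54, edgeR adjusted p = 0.00541). It passed in all 15 alternatives, with log2 fold changes from -1.02 to -0.71 and adjusted p up to 0.0342, and it passed without each of the 6 libraries in turn. Among the IRE1PKO livers, IRE1PKO 2 had the lowest and IRE1PKO 3 the highest value of both Igfals and Igf1.

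**Figure D2:**
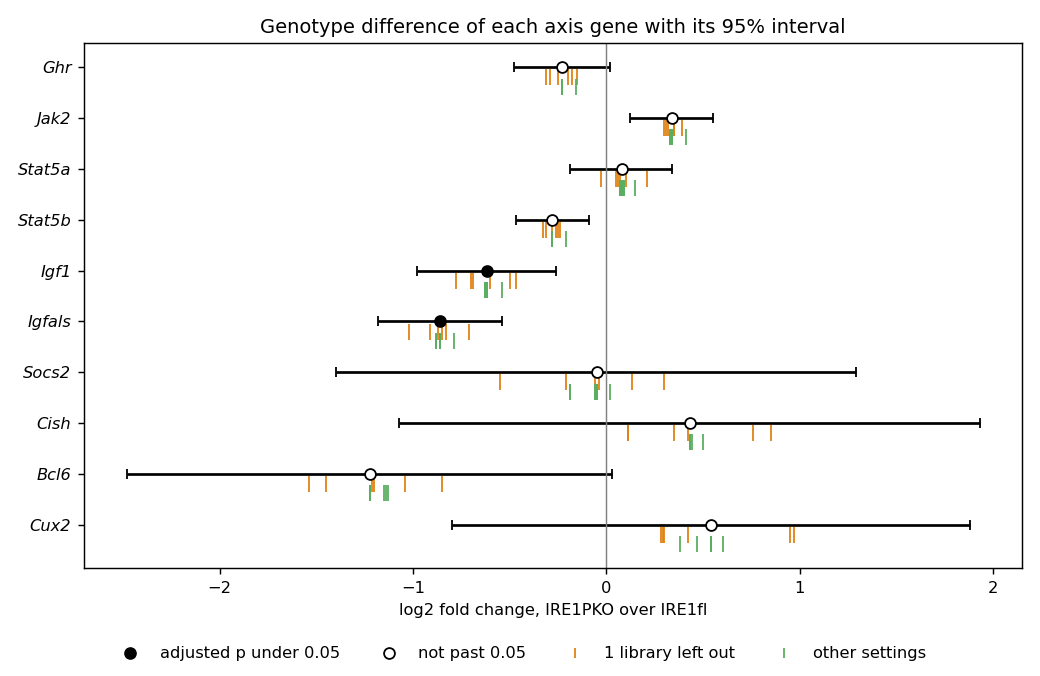
Log2 fold change of each axis gene, IRE1PKO over IRE1fl, with its 95% interval (black), the values with 1 library left out (orange) and under the other settings (green). Filled points, for Igf1 at -0.62 and Igfals at -0.86, had an adjusted p under 0.05, and the intervals of Socs2, Cish and Cux2 span 0 widely.

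Ratios of counts within a library do not depend on how libraries are scaled, and 6 were computed. The Igf1/Ghr ratio was 0.691, 0.515 and 0.713 in IRE1PKO and 0.861, 0.715 and 0.937 in IRE1fl. The groups were apart only by the gap between IRE1PKO 3 and IRE1fl 2. The Igfals/Ghr ratio was 0.168, 0.112 and 0.165 in IRE1PKO and 0.272, 0.206 and 0.216 in IRE1fl, again without overlap. The Stat5b/Stat5a ratio was 2.83, 2.97 and 2.84 in IRE1PKO, below the 3.94, 3.24 and 4.02 of IRE1fl. The Jak2/Ghr ratio was 0.0505, 0.0410 and 0.0393 in IRE1PKO, above the 0.0313, 0.0275 and 0.0292 of IRE1fl. For each of these 4 ratios the exact two-sided permutation p was 0.100, the smallest that 3 libraries against 3 can give, and 0.150 with Benjamini-Hochberg adjustment over the 6 ratios. These ratios show unequal differences of their 2 genes and do not say which of them moved. The Igfals/Igf1 ratio overlapped between the groups, at 0.244, 0.218 and 0.231 in IRE1PKO and 0.316, 0.288 and 0.230 in IRE1fl (exact permutation p = 0.300). The Cish/Socs2 ratio overlapped too, at 1.20, 0.916 and 0.586 in IRE1PKO and 0.726, 0.396 and 0.588 in IRE1fl (exact permutation p = 0.300).

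**Figure D3:**
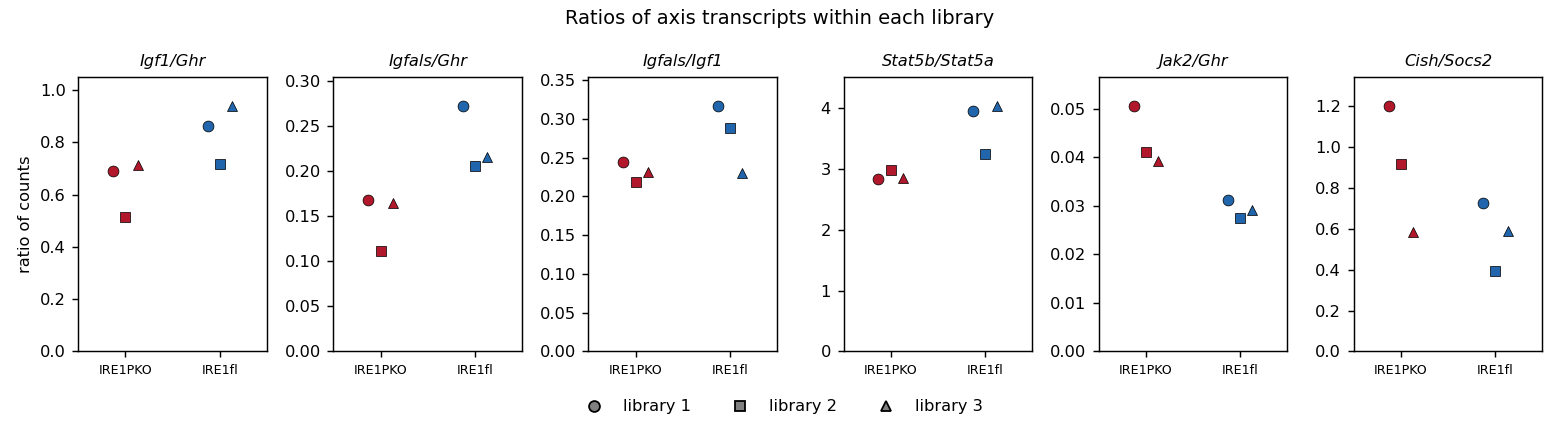
Ratios of the counts of 2 axis genes within each library (linear axes from 0), with IRE1PKO in red and IRE1fl in blue. Igfals/Ghr is at most 0.168 in IRE1PKO and at least 0.206 in IRE1fl, and the Jak2/Ghr ratio is higher in every IRE1PKO library.

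The promoter of Cish is known for paired STAT5 sites, and that of Igfals for a STAT5 site of the growth hormone response. BCL6 binds a closely related sequence, and its own gene is under STAT5 control. The motif searched was TTCNNNGAA, which reads the same on both strands, in RefSeq windows (GRCm38.p6) from 250 bases before to 50 bases after an annotated start. RefSeq gave 16 such windows for 9 of the 10 genes, and for Socs2 none was used here. The motif was in 5 windows of 3 genes, namely Cish, Igfals and Bcl6, and in 8.30% of all 32851 windows of the table. Matches did not overlap each other. The windows with 2 or more matches made up 0.457% of all windows, and Cish and a second annotated start of Bcl6 had such windows. One window of each of these genes is shown, to set the motif beside the values of Igfals, Cish and Bcl6, with the matches in capitals.
Cish, chr9:107296409-107296708, plus strand: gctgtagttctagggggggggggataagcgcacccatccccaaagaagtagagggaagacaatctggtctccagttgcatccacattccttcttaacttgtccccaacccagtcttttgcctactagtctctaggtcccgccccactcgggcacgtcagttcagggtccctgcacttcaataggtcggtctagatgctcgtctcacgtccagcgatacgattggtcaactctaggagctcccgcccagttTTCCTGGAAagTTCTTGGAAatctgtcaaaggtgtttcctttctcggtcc
Igfals, chr17:24877981-24878280, plus strand: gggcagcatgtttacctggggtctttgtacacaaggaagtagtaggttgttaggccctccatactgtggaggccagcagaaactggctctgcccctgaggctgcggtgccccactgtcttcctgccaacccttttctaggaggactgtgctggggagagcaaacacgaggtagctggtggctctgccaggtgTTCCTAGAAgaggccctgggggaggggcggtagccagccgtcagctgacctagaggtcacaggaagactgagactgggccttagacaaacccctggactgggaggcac
Bcl6, chr16:23981234-23981533, minus strand: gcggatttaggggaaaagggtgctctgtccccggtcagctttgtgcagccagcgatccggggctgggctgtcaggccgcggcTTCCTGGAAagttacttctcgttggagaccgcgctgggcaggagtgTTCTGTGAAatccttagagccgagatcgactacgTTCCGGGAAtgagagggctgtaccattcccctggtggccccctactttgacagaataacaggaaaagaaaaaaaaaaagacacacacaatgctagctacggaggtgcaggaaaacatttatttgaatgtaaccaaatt
The 2 Cish matches, TTCCTGGAA and TTCTTGGAA, lay at bases 1 to 9 and 12 to 20 from the start. The Igfals match, TTCCTAGAA, lay from base -58 to -50. The 3 Bcl6 matches were TTCCTGGAA at -168 to -160, TTCTGTGAA at -122 to -114 and TTCCGGGAA at -88 to -80. The other start of Bcl6 and another start of Igfals each held 1 match, TTCTCAGAA in both. No window of Ghr, Jak2, Stat5a, Stat5b, Igf1 or Cux2 held these letters, and sites far from a start lie outside these windows. The letters ATCGAT, a sequence bound by proteins with a CUT domain such as CUX2, were in 1 of the 16 windows, at a second start of Cux2 itself, and in 0.925% of all windows. A match is a description of the sequence and not a measured binding site. Binding was not measured here.

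**Figure D4:**
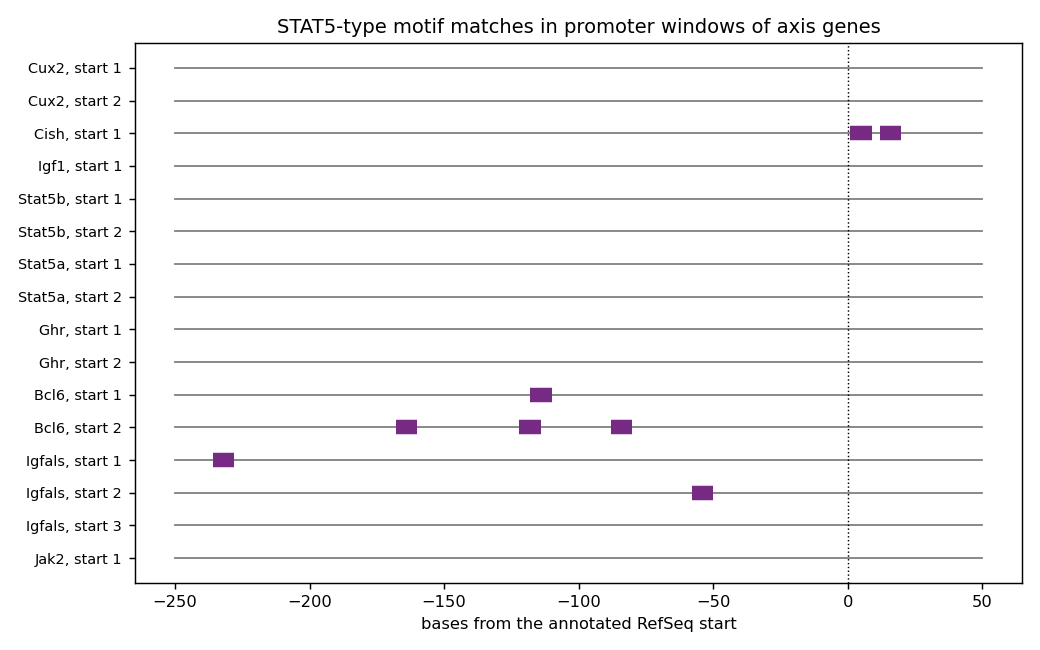
Positions of TTCNNNGAA matches (purple) in the 16 promoter windows of axis genes, in bases from the annotated RefSeq start (dotted line), with 1 row per annotated start. Cish holds 2 matches just after its start and the second start of Bcl6 holds 3 before it.

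The feedback inhibitors did not pass the test. Cish (chromosome 9, 107296026 to 107302784) had 18.8, 6.49 and 14.9 CPM in IRE1PKO and 15.1, 5.05 and 9.78 CPM in IRE1fl. The highest liver was 2.90 times the lowest in IRE1PKO and 2.98 times in IRE1fl, and the groups overlapped. The log2 fold change was 0.43 (SE 0.57, 95% interval -1.07 to 1.93, edgeR adjusted p = 0.709). Socs2 (chromosome 10, 95385362 to 95417180) had 15.7, 7.08 and 25.5 CPM in IRE1PKO and 20.7, 12.8 and 16.6 CPM in IRE1fl. The IRE1PKO livers held both the lowest and the highest value, a 3.60-fold range against 1.62-fold in IRE1fl. Its log2 fold change was -0.05 (SE 0.51, 95% interval -1.40 to 1.29, edgeR adjusted p = 0.966). The spread leaves room for a more than 2-fold difference in either direction for Socs2, so these values do not show that it was alike in the 2 genotypes.

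Bcl6, the repressor that shares sites with STAT5 (chromosome 16, 23965052 to 23988852), had 22.1, 39.0 and 29.6 CPM in IRE1PKO and 35.8, 103 and 72.8 CPM in IRE1fl. IRE1PKO 2 lay above IRE1fl 1, so the groups overlapped by that pair alone. The means were 30.3 ± 8.47 CPM in IRE1PKO and 70.6 ± 33.7 CPM in IRE1fl (SD, n = 3 each). The log2 fold change was -1.22 (SE 0.47, 95% interval -2.48 to 0.03), the largest in size among the 10 genes, and it did not pass (unadjusted p = 0.0542, edgeR adjusted p = 0.209). With 1 library left out it passed only without IRE1fl 1 (-1.54, edgeR adjusted p = 0.0315), and the adjusted p over all 15 alternatives ran from 0.00284 to 0.406. Without IRE1fl 2 the value was -0.85.

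In each genotype the livers ranked for Bcl6 in the reverse of their order for Cish. In IRE1PKO, IRE1PKO 2 was highest in Bcl6 and lowest in Cish and Socs2, and IRE1PKO 1 was lowest in Bcl6 and highest in Cish. Socs2 broke this order, with its highest IRE1PKO value, 25.5 CPM, in IRE1PKO 3. In IRE1fl, IRE1fl 2 was highest in Bcl6 and lowest in Cish and Socs2, and IRE1fl 1 was lowest in Bcl6 and highest in Cish and Socs2. With 3 libraries a genotype this order is a description with no test, noticed after the values were seen. Libraries of the same number ranked alike in both genotypes for Bcl6 and for Cish. The labels do not say whether the numbers mark a pairing or batch, so the genotypes may not be separate observations of this order. In rodent liver a pulse of growth hormone is known to induce Cish and Socs2 within a short time and to lower Bcl6. No source used here gives growth hormone levels or the time since a pulse, and their part in the spread was not tested.

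Cux2 (chromosome 5, 121856366 to 122050102) was close to the limit of detection, with 25, 24 and 7 counts in the IRE1PKO libraries and 10, 18 and 8 counts in the IRE1fl libraries. This gave 0.642, 0.651 and 0.171 CPM in IRE1PKO and 0.277, 0.511 and 0.216 CPM in IRE1fl. The lowest value was an IRE1PKO liver and the groups overlapped. The log2 fold change was 0.54 (SE 0.61, 95% interval -0.80 to 1.88, edgeR adjusted p = 0.633). No difference was detectable in these libraries, with few counts and a 3.81-fold range within IRE1PKO.

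By pattern over the 6 libraries, the genes most like Ghr in log2 CPM were Nsd1, Crip3 and Akr1c14 (Pearson r of 0.994, 0.986 and 0.986). Those most like Igf1 were Prpf6, Lrp11 and Pskh1 (r of 0.994, 0.993 and 0.993), and those most like Cux2 were Cox5b, Ndufa6 and Agfg2 (r of 0.990, 0.989 and 0.982). With only 6 points that share genotype and library, 86 genes were above 0.95 for Ghr, 106 for Igf1 and 29 for Cux2, so these are descriptions without a test. The Cux2 pattern rests on few counts.

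Around the axis, 24 partners of growth hormone signalling were tested, among them other JAK, STAT and SOCS genes and the phosphatases and adaptors of the receptor. None was higher by edgeR's quasi-likelihood test, by DESeq2 or by limma-voom, or at an unadjusted p under 0.05. In edgeR and DESeq2 1 was called lower, and in limma-voom 0. By edgeR 3.86% of all tested genes were called lower, a share close to 1 in 24, and 5.68% higher. Socs7, another suppressor of cytokine signalling, had 20.8 ± 2.08 CPM in IRE1PKO and 27.2 ± 1.95 CPM in IRE1fl (SD, n = 3 each). Socs7 fell by 0.38 in log2 terms (SE 0.11, edgeR adjusted p = 0.0452) and passed in 7 of 15 alternatives, 1 of them with a library left out. The list median was -0.02, beside 0.00 over all tested genes. Socs3, which inflammatory cytokines induce, had 8.47, 5.94 and 5.94 CPM in IRE1PKO and 7.20, 7.04 and 9.67 CPM in IRE1fl, and was named after its values were seen. These overlapped (log2 fold change -0.23, SE 0.19, edgeR adjusted p = 0.499).

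Of 11 tested genes of the wider IGF system, 1 rose and 2 fell, with a list median of 0.04. Among all tested genes 5.68% were called higher and 3.86% lower by edgeR. Igfbp2 and Igfbp4, binding proteins made by hepatocytes, were lower. Igfbp2 had 224, 235 and 162 CPM in IRE1PKO and 299.6, 495 and 415 CPM in IRE1fl. Igfbp2 fell by 0.96 in log2 terms (SE 0.21, edgeR adjusted p = 0.0284), a call kept without 3 of the 6 libraries in turn. Igfbp4 had 1713, 1753 and 1589 CPM in IRE1PKO and 2035, 2310.1 and 2483 CPM in IRE1fl. It fell by 0.43 (SE 0.11, edgeR adjusted p = 0.0343) and passed without 1 of the 6 libraries in turn. Igfbp7, an IGF-binding-related protein that endothelial and stellate cells also make, rose by 0.51 (SE 0.09, edgeR adjusted p = 0.00579) and passed in all 15 alternatives. Igfbp3, the binding protein that joins IGF1 and the acid-labile subunit, had 20.7, 26.1 and 20.0 CPM in IRE1PKO and 20.8, 14.3 and 17.0 CPM in IRE1fl. Igfbp3, with a log2 fold change of 0.36 (SE 0.15), did not pass (edgeR adjusted p = 0.173). Igf1r, the IGF1 receptor, was low in all livers, from 2.76 to 3.80 CPM in IRE1PKO and from 2.95 to 3.46 CPM in IRE1fl. Igfbp3 and Igf1r were named after their values were seen.

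Among 10 related cytokine and growth factor receptors none passed in edgeR's quasi-likelihood test, where 9.54% of all tested genes were called. At an unadjusted p under 0.05, 1 was higher and 2 were lower, and DESeq2 and limma-voom each called 2 lower. Lifr, the leukaemia inhibitory factor receptor, had 108, 100.1 and 188 CPM in IRE1PKO and 238, 298 and 380.1 CPM in IRE1fl, without overlap. Its log2 fold change of -1.21 (SE 0.31) missed the threshold (edgeR adjusted p = 0.0720), and it passed in 5 of 15 alternatives. Egfr, a receptor whose liver transcript depends on growth hormone in mice, had 73.1, 62.9 and 213 CPM in IRE1PKO and 323, 402 and 634 CPM in IRE1fl. The groups did not overlap although IRE1PKO 3 stood well above the other IRE1PKO livers, and the log2 fold change of -1.96 (SE 0.64) did not pass (edgeR adjusted p = 0.159). Prlr, the prolactin receptor and the nearest relative of GHR, had 99.8, 92.6 and 85.8 CPM in IRE1PKO and 109.7, 86.9 and 101 CPM in IRE1fl (log2 fold change -0.10, SE 0.10, edgeR adjusted p = 0.602). Egfr and Prlr were named after their values were seen. Egfr is also a member of the next list, of growth hormone and STAT5 dependent genes, and enters the counts of both lists.

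Of 12 liver genes listed as dependent on growth hormone and STAT5 in male mice, 5 fell and none rose, with a median log2 fold change of -1.46. Among all tested genes 3.86% were called lower and 5.68% higher by edgeR. The groups did not overlap for 11 of the 12, beside 31.0% of all tested genes. At an unadjusted p under 0.05, 11 were lower. DESeq2 called 9 lower and limma-voom 10, and none higher. The count depended on single libraries, being 0 without IRE1PKO 2, 1 without IRE1PKO 1, IRE1fl 2 or IRE1fl 3, and 8 without IRE1PKO 3. Cyp7b1, an oxysterol hydroxylase, had 55.0, 48.6 and 56.7 CPM in IRE1PKO and 137, 276 and 329 CPM in IRE1fl, a log2 fold change of -2.21 (SE 0.35, edgeR adjusted p = 0.0221). Serpina3k, a serine protease inhibitor, had 1895, 2346 and 3771 CPM in IRE1PKO and 5913, 7521 and 9389 CPM in IRE1fl. It fell by 1.51 (SE 0.29, edgeR adjusted p = 0.0228). Mup3, a major urinary protein, fell, with 2814, 2826 and 4166 CPM in IRE1PKO and 5037, 7829.6 and 6754 CPM in IRE1fl (edgeR adjusted p = 0.0149). The steroid dehydrogenase gene Hsd3b5 had the largest decrease of the list, with a log2 fold change of -6.91 (SE 0.87, edgeR adjusted p = 0.0186). Serpina3k, Mup3, Hsd3b5 and Cyp7b1 each lost the call without at least 3 of the 6 libraries in turn. Mup3 and Serpina3k belong to families of near-identical genes, so their reads may be split with other members. Elovl3, a fatty acid elongase, was the member whose groups overlapped, at 58.4, 55.3 and 46.3 CPM in IRE1PKO and 131, 54.6 and 37.1 CPM in IRE1fl. Slco1a1, an organic anion transporter, fell by 2.19 (SE 0.41, edgeR adjusted p = 0.0391), and Elovl3 and Slco1a1 were named with their values in view.

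A list of 15 lipid and female-biased genes, drawn up as candidates for repression by liver growth hormone signalling, had 14 tested members. Of these 10 rose and none fell, with a median log2 fold change of 2.14. Among all tested genes 5.68% were called higher and 3.86% lower by edgeR. Only 6 were called without IRE1PKO 1. Mogat1, a monoacylglycerol acyltransferase, had 11.9, 7.22 and 12.9 CPM in IRE1PKO and 1.27, 1.53 and 0.647 CPM in IRE1fl. Fgf21, a hormone of the fasted and stressed liver, had 22.6, 13.9 and 9.75 CPM in IRE1PKO and 3.32, 2.35 and 3.26 CPM in IRE1fl. Plin2, a lipid droplet coat gene, rose by 0.88 (SE 0.11, edgeR adjusted p = 0.00118) and the fatty acid synthase gene Fasn by 1.30 (SE 0.16, edgeR adjusted p = 0.00134). The lipid genes and the male-biased genes above were known to differ in these libraries when the lists were drawn up, so neither count is independent evidence of a direction.

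Of 20 other transcription regulators of liver, 1 rose and 3 fell, with a median of 0.00. By edgeR 5.68% of all tested genes were called higher, a share close to 1 in 20, and 3.86% lower. Nfix, a nuclear factor I gene, had 82.5, 94.6 and 86.8 CPM in IRE1PKO and 128, 146 and 143 CPM in IRE1fl. It fell by 0.66 (SE 0.09, edgeR adjusted p = 0.00164) and passed in all 15 alternatives. Tox, a high-mobility-group factor typical of female mouse liver, had 9.24, 15.4 and 9.34 CPM in IRE1PKO and 5.46, 4.62 and 2.83 CPM in IRE1fl. It rose by 1.39 (SE 0.28, edgeR adjusted p = 0.0167), a call lost without IRE1fl 2 (edgeR adjusted p = 0.0595).

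**Figure D5:**
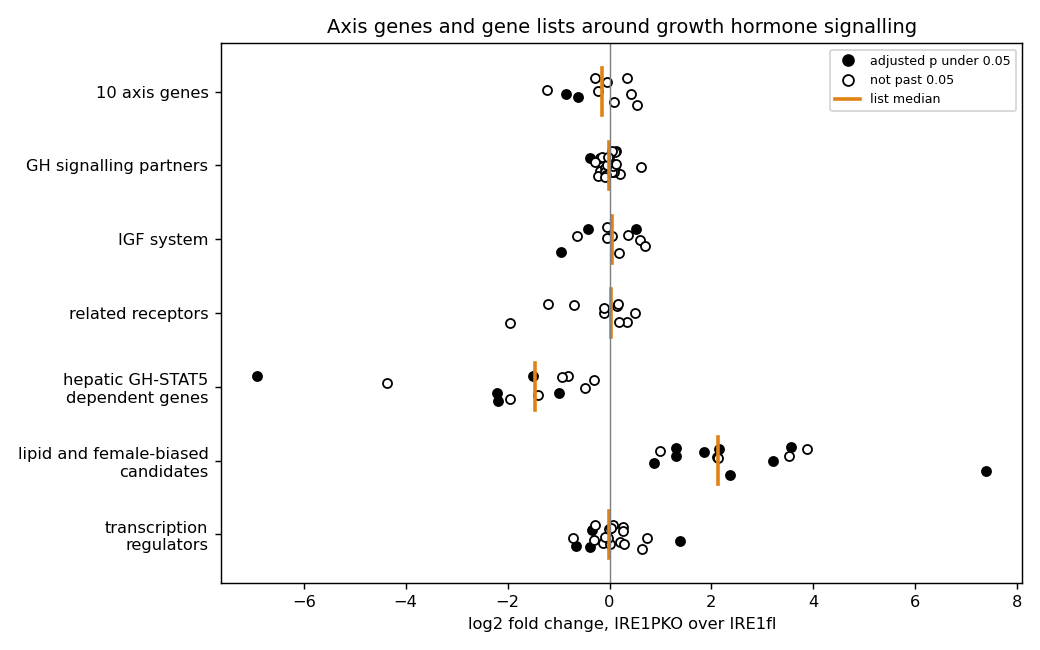
Log2 fold changes, IRE1PKO over IRE1fl, of the tested genes in the axis and in 6 gene lists, with list medians in orange and filled points for an adjusted p under 0.05. The axis genes lie around a median of -0.14, the growth hormone and STAT5 dependent genes around -1.46 and the lipid and female-biased candidates around 2.14.

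Markers of other cells moved beside these genes, and their part in the results was not tested. The counts below stand beside 5.68% of all tested genes called higher and 3.86% called lower by edgeR. Of 10 stellate cell and collagen genes 6 rose, with a summed level of 392 to 408 CPM in IRE1PKO and 193 to 252 CPM in IRE1fl. Of 8 sinusoidal endothelial genes 4 rose, with sums of 279 to 373 CPM in IRE1PKO and 239 to 259.6 CPM in IRE1fl. Of 10 macrophage genes 1 rose and 1 fell, and the sums overlapped, at 453 to 608 CPM in IRE1PKO and 367 to 504 CPM in IRE1fl. Macrophages and stellate cells can also express Igf1. Of 13 hepatocyte genes 4 fell, namely Serpina1a, Cps1, Tat and Fah. Genes of T and NK cells summed to 2.70 to 3.34 CPM in IRE1PKO and 5.79 to 6.01 CPM in IRE1fl, and those of B and plasma cells to 6.16 to 7.68 CPM in IRE1PKO and 9.05 to 13.7 CPM in IRE1fl. Both sums were lower in every IRE1PKO liver than in every IRE1fl liver. Each separation depended on a single gene, since the sums overlapped without Cd4 in the first list and without Jchain in the second. Cd4 had 0.822, 0.380 and 0.587 CPM in IRE1PKO and 1.66, 3.09 and 2.91 CPM in IRE1fl. Jchain had 1.64, 2.36 and 2.81 CPM in IRE1PKO and 6.29, 3.72 and 9.03 CPM in IRE1fl. Lymphocytes also express Bcl6, and their part in its values was not tested. In each of these lists 1 gene fell, Cd4 of 7 tested and Jchain of 6 tested. Of 6 tested cholangiocyte genes 1 rose and 1 fell, with sums of 58.0 to 68.6 CPM in IRE1PKO and 53.1 to 57.9 CPM in IRE1fl. Of 3 tested neutrophil genes none passed in edgeR, DESeq2 or limma-voom or at an unadjusted p under 0.05, with sums of 3.88 to 5.51 CPM in IRE1PKO and 3.68 to 10.5 CPM in IRE1fl. Of 5 erythroid genes Alas2 fell, with sums of 310.0 to 946 CPM in IRE1PKO and 344 to 508 CPM in IRE1fl. Of 6 pancreatic acinar genes 4, namely Prss1, Ctrb1, Pnlip and Amy2a5, were at 0 in every library, and Cela1, the 1 tested, fell, with sums of 7.85 to 11.0 CPM in IRE1PKO and 28.9 to 42.6 CPM in IRE1fl.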

How the data were processed

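The deposited values are unnormalised gene counts from the authors, in 1 table by symbol, with the 6 liver libraries unpooled. The submitters' processing notes name mm10 as the build. Aligner, counter and annotation: not given in the sources used here. Between 1 and 8, even values were 2.58 to 3.19 times as frequent as odd ones, so mates of a pair may have been counted singly. Columns were matched to samples by genotype and number in their names.

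Counts were filtered with filterByExpr at its defaults, TMM-scaled and fitted with edgeR 4.0.16 (R 4.3.3) over all genes, by the robust quasi-likelihood test, two-sided, with Benjamini-Hochberg adjustment and a threshold of 0.05. Intervals are at the 95% level. Log2 fold changes are IRE1PKO over IRE1fl. The steps were tested on simulated counts. Alternatives used DESeq2 1.42.0, limma 3.58.1, other scalings, filters and fits, a replicate block and each library left out. No 2 libraries of a group were copies, since chi-square per gene between them was 28.6 to 63.4.

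The 10 genes and all lists were chosen with earlier results of these data known. The text names all 10, up to 4 called members of smallest p per pathway list (or the 1 of smallest p where none passed), and the 3 genes most like Ghr, Igf1 and Cux2 among those with a mean of 1 CPM or more, by log2 CPM with a prior count of 2. Some genes the rule names are not reported here. Other names were chosen after their values were seen, including those in the sentences on cell types. Of the marker genes, Trac was not found in the table. Promoter sequences are RefSeq's, build GRCm38.p6.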

Additional observations from a re-analysis of the deposited data

How the results depend on the processing

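Igfals was called lower in all 15 alternatives and Igf1 in 10 of them. Of the 10 axis genes, 2 were called lower, and between 1 and 3 when single libraries were dropped. The count was 1 lower and 1 higher when only library totals were used for scaling, and 1 higher at a mean of 1 CPM or more and with halved counts. The gene called higher in those settings was Jak2. No axis gene was called higher when any 1 of the 6 libraries was dropped. Over all tested genes 1426 were called, and 653 to 1484 when single libraries were dropped. The lower counts were 653 without IRE1PKO 1, 815 without IRE1PKO 2, 896 without IRE1fl 2 and 789 without IRE1fl 3, and the cause was not tested. Library totals moved the median of all genes by 0.07 on the log2 scale and the higher share of calls to 73.4%, in place of 59.5%. Signs turned only in genes that never passed: Stat5a to -0.03 without IRE1fl 3, and Socs2 to 0.02 with library totals, 0.30 without IRE1PKO 2 and 0.13 without IRE1fl 1. With single libraries dropped, Stat5a ran from -0.03 to 0.21 and Socs2 from -0.55 to 0.30.

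The labels do not say whether the replicate numbers pair the samples or mark a shared batch, and these values do not settle it. Deviations from the group means correlated with r of 0.0712, -0.0216 and 0.101 between libraries of the same number. Between libraries of different numbers r ran from -0.107 to 0.0346. For Bcl6 and for Cish the livers ranked alike by number in both genotypes. With the replicate number as a block 1865 genes were called, in place of 1426. In that fit 3 axis genes were lower, Bcl6 among them (-1.14, edgeR adjusted p = 0.00284). Cish stayed uncalled there (0.43, edgeR adjusted p = 0.0509). Cux2 gave no value at a mean of 1 CPM or more or with halved counts, since it did not pass those filters. Of the 14 called genes named from the lists, 6 were called in all 15 alternatives (Igfbp7, Mogat1, Plin2, Fasn, Fgf21 and Nfix). Cux2 had at most 25 counts in a library.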
